A study of Mus musculus with 12 samples.

Results

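Described here are 10 genes of endoplasmic reticulum (ER)-associated degradation (ERAD) and of the unfolded protein response (UPR) in mouse liver with and without METTL5, the enzyme that places N6-methyladenosine on 18S rRNA. They are Derl1, Derl2, Derl3, Syvn1, Sel1l, Herpud1, Edem1, Hspa5, Xbp1 and Creld2. The group was chosen by gene symbol because ribosome footprints of Derl2 were lower in knockout livers, so the footprints of Derl2, and its ratio of footprints to transcript, are given as a description with no test. All 10 genes were among the 55487 genes of the input count table. Of the 10607 genes in the table of normalized values, 9 were members, since Derl3 had no row there. All 9 also passed the filter on low values that left 8994 genes for testing.

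The livers were those of 3 pairs of littermates, each pair being 1 wild-type (WT) mouse and 1 mouse without Mettl5 (KO). In KO mice a floxed exon of Mettl5, the second, had been removed in the whole body by a Cre transgene under the CMV promoter, and the line came from hybrid C57BL/6 and 129S6 stem cells backcrossed to C57BL/6. The label of the WT mice gives no Cre or floxed allele, and the labels state no age. Each liver lysate, made in cycloheximide, gave 1 library of input RNA, which measures transcripts, and 1 of RPF (ribosome-protected fragments), the footprints left after nuclease digestion. The 12 libraries thus formed 4 groups of 3. Translation efficiency (TE) is RPF over input for a gene.

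Proteins that fail to fold in the ER are recognized, pulled back through its membrane, ubiquitinated and degraded by the proteasome, which is the route called ERAD. When misfolded proteins build up, the ER sensors IRE1, PERK and ATF6 start the UPR, which raises transcription of chaperones and of ERAD components. Hepatocytes secrete most plasma proteins, so they carry a large ER.

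Input libraries held 8326325 to 11825643 counts. The normalized table covered 2398804 to 5121304 reads per input library and 4623826 to 9184242 per RPF library. Mettl5 was examined first as a check of the labels. Its RPF was 58.4, 47.8 and 53.1 normalized reads in WT mice 1, 2 and 3 and 8.34, 5.53 and 9.56 in KO mice 1, 2 and 3, so the genotypes did not overlap. Its input counts were 21, 18 and 12 in WT and 13, 7 and 5 in KO. Hepatocyte markers summed to 20655 to 27903 CPM, which are counts scaled to the size of each library, in WT input and 22165 to 23389 in KO input, with 6 of 6 markers found and none at 0. The 5 stellate cell and fibroblast markers stood apart by genotype, with a sum of 67.7 to 78.1 CPM in WT and 88.0 to 94.5 in KO input, and of 1815 to 2012 against 2669 to 2835 normalized RPF reads. None of these 5 was at 0 in every input library, and their part in the results given here was not tested. Sums of the Kupffer cell, endothelial, cholangiocyte, lymphocyte and erythroid markers overlapped between genotypes in input, and of the 25 genes of those lists, Mzb1, a plasma cell marker, was at 0 in every input library. In bulk liver, fewer cells of a type and less RNA per cell cannot be told apart.

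Across the group, 8 of 9 genes had lower mean log2 values in KO than in WT in input, and 8 of 9 in RPF, where the exceptions were Derl1 in input and Edem1 in RPF. Over all genes tested, 50.0% were lower in input and 54.0% in RPF. The median log2 fold change of the 9 genes was −0.25 in input and −0.29 in RPF, beside −0.00037 and −0.033 over all genes tested. Among genes with a mean of at least 50, 59.5% were lower in RPF, with a median of −0.064. With Derl2, on which the group was chosen, left out, 7 of 8 were lower in each assay, with medians of −0.23 and −0.28. None of the 9 passed an adjusted p of 0.05 in input with edgeR's quasi-likelihood test, nor with DESeq2, and 1 of them, Xbp1, had an unadjusted p under 0.05, against 3.46% of all genes. The share of all genes called in input was 0%. Of the 8 genes other than Derl2, 0 passed in RPF with limma or with edgeR on whole reads, where 0.489% of all genes were called with limma, and 3 (Xbp1, Hspa5 and Creld2) had an unadjusted p under 0.05, against 13.4% of all genes. With the replicate block of litter, 2 of these 8 passed in RPF, Xbp1 and Hspa5, and 3.26% of all genes did.

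**Figure D1:**
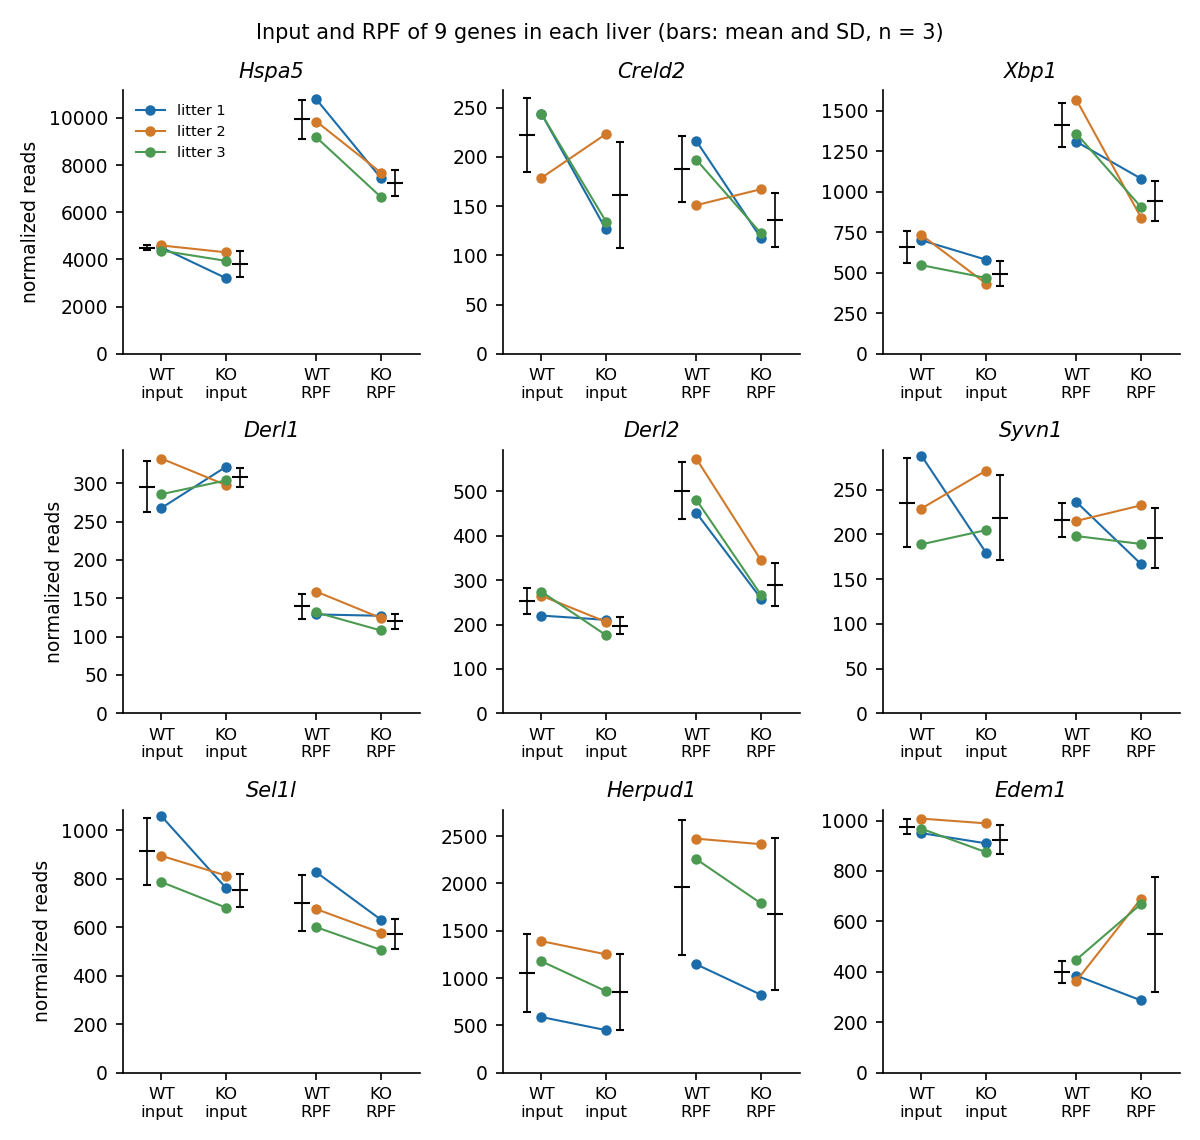
Normalized reads (vertical axis, from 0) of 9 genes in input and RPF of each liver, with littermates joined by lines and the mean ± SD of 3 mice beside each group. RPF of Derl2, Hspa5, Xbp1 and Derl1 was lower in every KO than in every WT liver, Herpud1 followed the litter, and Edem1 was high in RPF of KO mice 2 and 3 and low in KO mouse 1.

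The derlins are membrane proteins of the retrotranslocation channel. Derl2 (ENSMUSG00000018442) is at 71007164 to 71019841 of chromosome 11, minus strand (mm10, as for all gene positions given here). In RPF it had 451.3, 573.3 and 480.7 normalized reads in WT mice 1, 2 and 3 and 258.6, 344.9 and 266.6 in KO mice. The lowest WT liver was above the highest KO liver, and the values, on which the group was chosen, rest on 279 to 932 RPF reads per library. The mean fell from 502 ± 63.7 to 290.02 ± 47.7 (SD, n = 3 each), 1.73-fold lower in KO, with a log2 ratio of KO to WT of −0.80, −0.73 and −0.85 in litters 1, 2 and 3. The drop was thus of like size in each of the 3 litters.

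The transcript of Derl2 was lower too, by less. Its input was 220.1, 264.9 and 274.04 normalized reads in WT and 210.5, 206.01 and 175.9 in KO, which do not overlap. The litters differed in how far it was lower, with log2 ratios of −0.065, −0.36 and −0.64. On 110 to 320 counts per library, its input log2 fold change was −0.33 (SE 0.16), which did not pass (edgeR adjusted p 0.999). Its TE was 2.05, 2.16 and 1.75 in WT and 1.23, 1.67 and 1.52 in KO, again with no overlap, and its TE log2 fold change of −0.44 (SE 0.22) is a description, since footprints enter it. Litter 1 had the smallest difference in input and the largest in TE. The first 231 bases of Derl2 overlap Mis12 on the opposite strand, and input counting used the strand.

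Derl1 (ENSMUSG00000022365, chromosome 15, 57869502 to 57892448, minus strand) differed from Derl2 in input. Its input was 267.8, 332.3 and 285.8 normalized reads in WT and 321.6, 297.7 and 303.8 in KO, with a log2 fold change of 0.087 (SE 0.14). The genotypes overlapped. Its RPF was 128.9, 158.7 and 131.5 in WT and 127.2, 124.2 and 108 in KO. Every KO liver was below every WT liver, by a narrow margin in litter 1. The RPF log2 fold change of −0.22 (SE 0.15) did not pass (limma adjusted p 0.552). TE of Derl1 was 0.473 ± 0.0114 in WT and 0.389 ± 0.0313 in KO (SD, n = 3), lower in every litter and without overlap. The change in log2 TE was −0.28 (SE 0.21), which did not pass in limma (adjusted p 0.998). With a term for each mouse, which pairs input and RPF of a liver, the SE was 0.19 (limma adjusted p 0.727).

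Derl3 (ENSMUSG00000009092, chromosome 10, 75893413 to 75895941, plus strand), the third derlin, had 0, 1 and 2 input counts in WT and 2, 2 and 1 in KO. Each library was under the floor of 3 counts, so no fold is given, and its footprints were not analysed here.

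Syvn1 and Sel1l encode the core of the main ERAD ubiquitin ligase, HRD1 and the adaptor that holds it in place. Syvn1 (ENSMUSG00000024807, chromosome 19, 6046576 to 6053712, plus strand) had 236.1, 215.002 and 198.05 normalized RPF reads in WT and 166.8, 232.4 and 189.2 in KO. Those values overlapped, and they were lower in KO in litters 1 and 3 and higher in litter 2. Its log2 fold change was −0.083 (SE 0.19) in input and −0.15 (SE 0.19) in RPF (limma adjusted p 0.771). In input its sign turned when mouse 1 of either genotype was left out, to 0.086 without WT mouse 1 and 0.045 without KO mouse 1.

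Sel1l (ENSMUSG00000020964, chromosome 12, 91806043 to 91849157, minus strand) was lower in KO in 3 of 3 litters in both assays, although the genotypes overlapped. Its input was 1058, 895 and 787 normalized reads in WT and 762, 813 and 681 in KO. Its RPF was 827, 675 and 600.3 in WT and 631, 577 and 507 in KO, where litter 1 had the highest and litter 3 the lowest value of each genotype. The log2 fold change was −0.25 (SE 0.15) in input and −0.29 (SE 0.15) in RPF, which did not pass (limma adjusted p 0.428). Without WT mouse 1 it was −0.13 in input and −0.16 in RPF. Its TE hardly differed, at 0.766 ± 0.0138 in WT and 0.760 ± 0.0609 in KO (SD, n = 3), which is −0.014 in log2 (SE 0.21).

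Herpud1 (ENSMUSG00000031770, chromosome 8, 94386438 to 94395377, plus strand), a membrane scaffold of the ligase complex, varied by litter more than by genotype. Its RPF was 1145, 2473 and 2255 normalized reads in WT and 824, 2414 and 1789 in KO. Both mice of litter 1 had the lowest values of their genotype, and both mice of litter 2 the highest. Input showed the same order, with 589, 1390.2 and 1177 in WT and 449.9, 1251 and 862 in KO. The RPF log2 fold change of −0.28 had an SE of 0.56 without the litter term and of 0.12 with the replicate block, and did not pass in either fit (limma adjusted p 0.873 and 0.205). Without KO mouse 1 it was 0.16 in RPF and 0.023 in input. TE was even across the 6 livers, from 1.78 to 2.08, with a mean of 1.88 ± 0.0885 in WT and 1.95 ± 0.123 in KO (SD, n = 3).

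Edem1 (ENSMUSG00000030104, chromosome 6, 108828641 to 108859356, plus strand) encodes a lectin that hands misfolded glycoproteins to ERAD, and was the only member with a higher mean log2 RPF in KO. Its RPF was 385, 364 and 449 normalized reads in WT and 287, 690.3 and 669 in KO. KO mouse 1 was below every WT liver, and KO mice 2 and 3 were above every WT liver. Input was flat, at 950.2, 1008 and 968 in WT and 909.7, 989 and 875 in KO. TE was 0.316 in KO mouse 1 and 0.698 and 0.765 in KO mice 2 and 3, against 0.361 to 0.464 in WT. The RPF log2 fold change of 0.36 (SE 0.25) did not pass (limma adjusted p 0.580). Without KO mouse 1, its input and RPF libraries both left out, it was 0.77 and passed (limma adjusted p 0.0136). In that fit 226 of 8982 genes were called in RPF, against 44 of 8994 with all mice. The call of Edem1 thus depended on whether KO mouse 1 was in the fit.

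Hspa5 and Creld2 are ER luminal proteins and Xbp1 encodes the transcription factor whose mRNA is spliced by IRE1. Hspa5 (ENSMUSG00000026864, chromosome 2, 34771970 to 34777547, plus strand) encodes BiP, the main ER chaperone and a standard readout of the UPR. Its RPF was 10785, 9847 and 9175 normalized reads in WT and 7444, 7677 and 6641 in KO. Every KO liver was below every WT liver, and all 3 litters were lower, by 0.53, 0.36 and 0.47 in log2. The mean was 9935 ± 809 in WT and 7254 ± 543 in KO (SD, n = 3), on 6949 to 17789 RPF reads per library, the deepest of the group.

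The log2 fold change of Hspa5 in RPF was −0.45 (SE 0.13), which did not pass (limma adjusted p 0.129). With the replicate block it passed in limma (adjusted p 0.0407), but not when a trend with the GC content of the coding sequence was also removed (adjusted p 0.201) nor with edgeR on whole reads (adjusted p 0.0685). Its input was 4507, 4592 and 4374 in WT and 3206, 4302 and 3940 in KO. These did not overlap either, with KO mouse 1 the lowest, and the input log2 fold change was −0.21 (SE 0.14, edgeR adjusted p 0.999). TE of Hspa5 overlapped between genotypes, at 2.21 ± 0.159 in WT and 1.93 ± 0.343 in KO (SD, n = 3), and lower for the KO littermate in each litter. Its TE log2 fold change was −0.21 (SE 0.19).

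Xbp1 (ENSMUSG00000020484, chromosome 11, 5520659 to 5525893, plus strand) had 1309, 1567 and 1358 normalized RPF reads in WT and 1081, 841 and 906 in KO. The genotypes did not overlap, and the mean was 1411 ± 137 in WT and 943 ± 124 in KO (SD, n = 3), a change of −33.2% in KO. The log2 fold change of −0.59 (SE 0.15) did not pass without litter in the fit (limma adjusted p 0.0885) and passed with the replicate block (adjusted p 0.0208). It also passed without KO mouse 1, at −0.69 (limma adjusted p 0.0285). In that setting 226 of 8982 genes were called in RPF, against 44 of 8994 with all mice.

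The transcript of Xbp1 was lower in KO in 3 of 3 litters, with 700.7, 734 and 547 normalized input reads in WT and 581, 433 and 469 in KO. WT mouse 3 overlapped KO mouse 1. Its input log2 fold change of −0.38 (SE 0.16) had an unadjusted p of 0.0302 and did not pass (edgeR adjusted p 0.999). TE was 2.16 ± 0.309 in WT and 1.91 ± 0.0442 in KO (SD, n = 3), a log2 difference of −0.17 (SE 0.22). Counts per gene do not separate the spliced from the unspliced mRNA of Xbp1, so splicing was not measured.

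Creld2 (ENSMUSG00000023272, chromosome 15, 88819646 to 88826683, plus strand) encodes a disulfide isomerase-like protein known as a target of the UPR. Its RPF was 216.1, 151 and 197.02 normalized reads in WT and 117.5, 167.2 and 122.3 in KO. It was lower in KO in litters 1 and 3 and higher in litter 2, and its input went the same way with 244, 178.7 and 243.9 in WT and 126.3, 223.3 and 134.3 in KO. The log2 fold change was −0.45 (SE 0.22) in input and −0.47 (SE 0.22) in RPF (limma adjusted p 0.365). TE did not go with genotype, with a log2 fold change of 0.023 (SE 0.31).

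**Figure D2:**
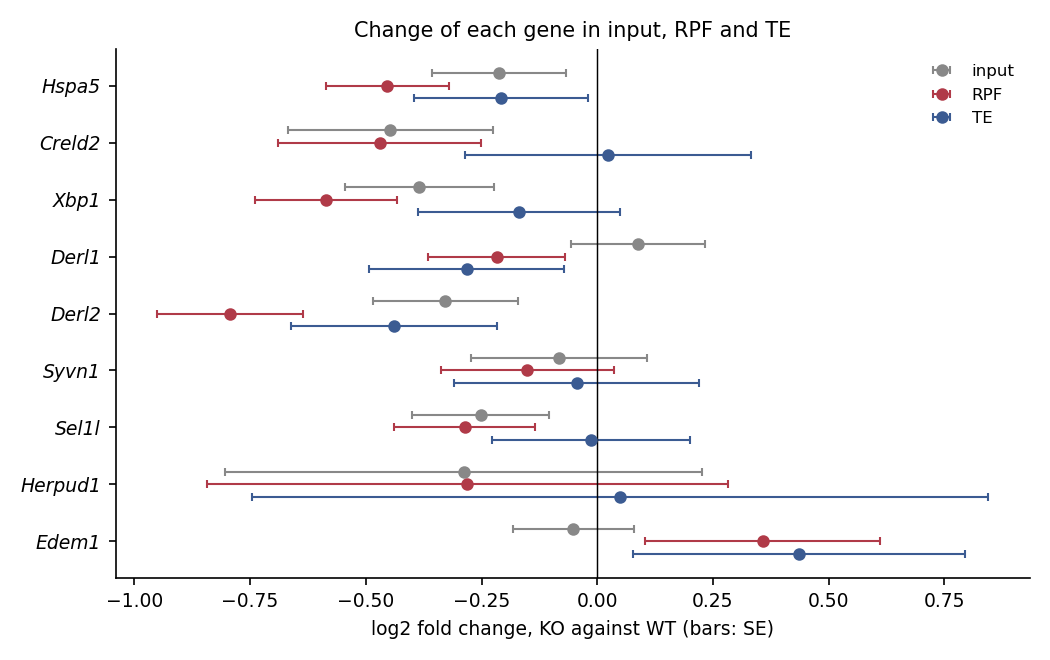
Log2 fold change of KO against WT (horizontal axis) of 9 genes in input, RPF and TE, with bars of 1 SE from the edgeR fit for input and from the limma fit for RPF and TE. Derl2 had the lowest RPF value, −0.79, and Edem1, at 0.36, was the only one above 0 in RPF, while the TE values of 7 genes lay between −0.28 and 0.049.

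In RPF, 4 of 9 genes (Derl2, Hspa5, Xbp1 and Derl1) had every KO liver below every WT liver, against 12.9% of all genes tested, and Derl2 was chosen on these values. In input, 2 of 9 (Derl2 and Hspa5) did so, against 5.6% of all genes. TE was lower in KO for 6 of 9 genes, against 51.3% of all genes, and the 3 above 0 were Creld2, Herpud1 and Edem1. Of the 8 genes other than Derl2, 0 passed in TE with limma or with edgeR on whole reads of the 12 libraries, where 0% of all genes were called, and 0 had an unadjusted p under 0.05 with limma. With a term for each mouse in limma, 0 passed as well, among these 8 and over all genes. Summed over the 9 genes, RPF was 14844 to 16024 normalized reads in WT and 10937 to 13068 in KO, of which Hspa5 made up the larger share. Without Hspa5 the sums overlapped, at 4698 to 6177 in WT and 3493 to 5391 in KO.

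Levels of the members were set side by side only per length. Per kilobase of coding sequence (CDS), mean RPF of the 6 livers ran in the order Hspa5 (4374 normalized reads), Herpud1 (1549), Xbp1 (1469), Derl2 (552), Sel1l (268), Edem1 (242), Derl1 (172), Creld2 (154) and Syvn1 (112). Each was above the median of 52.4 of all genes, and the percentile ran from 68.2 for Syvn1 to 98.6 for Hspa5. Some neighbours in that order did not differ beyond their spread. In WT, Herpud1 had 1669 ± 607 and Xbp1 1762 ± 171 reads per kilobase of CDS, and Derl1 had 186 ± 21.9 against 179 ± 31.9 for Creld2 (SD, n = 3). Sel1l was above Edem1 in WT (296 ± 48.7 against 204 ± 22.5) and not in KO (241 ± 26.4 against 281 ± 116). Derl2 fell from 699.8 ± 88.8 in WT to 404 ± 66.5 in KO and in both genotypes was below Hspa5, Herpud1 and Xbp1 and above the other 5 members.

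Input per kilobase of exon gave Hspa5 first (982 normalized reads), followed by Herpud1 (409) and Xbp1 (178), and put Derl2 last (28.0). The annotated exons of Derl2 span 8049 bases against 717 of CDS, so its input level per kilobase depends on which exons are in use. Derl2 was thus at the percentile 64.1 of all genes in input and at 90.1 in RPF per kilobase of CDS.

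Members' RPF values were compared with each other across the 6 livers. The livers share litters and genotypes, and r over pairs of all genes was not computed, so the coefficients are a description. Of 36 pairs, 30 had a Pearson r of log2 RPF above 0, with a median of 0.49. The highest r was 0.88, between Hspa5 and Derl2, on whose RPF the group was chosen. Next came 0.87, between Sel1l and Hspa5, and the lowest was −0.67, between Edem1 and Xbp1. In input the median was 0.42, and 29 of 36 pairs were above 0. The 6 genes whose RPF followed Derl2 most closely, among 5703 genes compared, were Eif2s1 (r 0.998), Ccar1, Slc12a2, Ugt2b1, Xpnpep3 and Xpo5 (r 0.981). The 6 whose input followed Hspa5 most closely, among 6099 genes, were Tfrc (r 0.989), Pm20d1, Arhgap42, Mup21, Phyh and Cyp2d26.

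The composition of the coding sequence varied among members and moved with RPF over all genes. Over 8986 genes with a CDS, the RPF log2 fold change and CDS GC content had a Spearman rho of 0.455 across genes, which are not independent replicates, against 0.085 in input. Derl2 had the lowest GC content of the group, 44.8%, at the percentile 11.3 of genes tested, and Derl3 the highest at 59.6%. Hspa5 had 47.5%, Xbp1 57.7% and the median gene 52.6%. After a trend with GC content was removed from every library, the RPF log2 fold change of Derl2 was −0.60 in place of −0.79, and that of Hspa5 was −0.32 (SE 0.13, limma adjusted p 0.423) in place of −0.45. TE of Hspa5 went from −0.21 to −0.093, and RPF of Syvn1 from −0.15 to −0.32 (SE 0.19, limma adjusted p 0.660). Xbp1, on the GC-rich side, went from −0.59 to −0.73 (SE 0.16, limma adjusted p 0.0817), and with the replicate block added it passed (adjusted p 0.0081). All 9 genes kept the sign of their RPF change under this setting.

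The ER stress response element (ERSE, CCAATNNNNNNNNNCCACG), bound by NF-Y and by ATF6 or XBP1, and its shorter form ERSE-II (ATTGGNCCACG) were searched on both strands of promoter windows of RefSeq (GRCm38.p6), from 250 bases before to 50 after a start of transcription. Of the 10 members, 9 matched a window by symbol, 10 windows in all. Derl1 had no entry. For Hspa5 the RefSeq start lies after the first base of the gene span given above, so its element falls within that span. ERSE was in the windows of 4 members, Hspa5, Creld2, Syvn1 and Derl3, against 0.137% of 27021 genes (0.119% of 32851 windows). ERSE-II was in that of Herpud1, against 0.0444% of genes (0.0365% of windows). These letters were in no window of Derl2, Xbp1, Sel1l or Edem1. No other element was searched for. The matches are shown with the fixed letters of the element in capitals, 20 bases on each side, and read along the strand on which the element matched.
Hspa5, ERSE (chr2:34772005-34772063, plus strand, gene on plus): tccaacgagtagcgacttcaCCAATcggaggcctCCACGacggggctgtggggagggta
Creld2, ERSE (chr15:88819500-88819558, minus strand, gene on plus): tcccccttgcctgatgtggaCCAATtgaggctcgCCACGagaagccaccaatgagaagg
Syvn1, ERSE (chr19:6046512-6046570, plus strand, gene on plus): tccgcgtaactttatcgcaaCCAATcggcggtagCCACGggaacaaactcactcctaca
Derl3, ERSE (chr10:75893222-75893280, minus strand, gene on plus): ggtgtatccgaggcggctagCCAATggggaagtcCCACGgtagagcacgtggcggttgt
Herpud1, ERSE-II (chr8:94386357-94386407, plus strand, gene on plus): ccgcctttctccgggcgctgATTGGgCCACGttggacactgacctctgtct

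**Figure D3:**
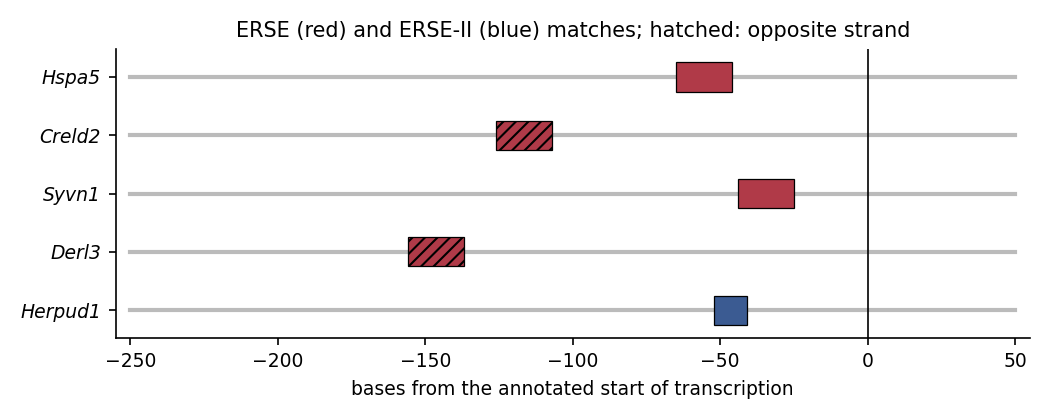
Position of ERSE and ERSE-II matches in the promoter windows of 5 members, in bases from the RefSeq start of transcription (horizontal axis, negative before the start), with grey lines for the window and hatching for matches on the strand opposite to the gene. All 5 matches began between 44 and 156 bases before the RefSeq start.

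Among the 4 tested members with either element, Creld2 and Hspa5 had RPF log2 fold changes of −0.47 and −0.45, and Syvn1 and Herpud1 of −0.15 and −0.28. Members without a match ranged from −0.79 (Derl2) to 0.36 (Edem1). Over all genes with either element other than members, 13 of 17 were lower in KO in RPF, with a median log2 fold change of −0.19, beside 54.0% lower and −0.033 over all 8994 genes. In input it was 14 of 19, with a median of −0.15, beside 50.0% and −0.00037. None of them passed in input or RPF (edgeR and limma). In input 2 of 19 and in RPF 3 of 17 had an unadjusted p under 0.05, against 3.46% and 13.4% of all genes. In TE 8 of 17 were lower, against 51.3% of all genes. These genes include Calr, Canx, Dnajb11, Dnajc3, Ero1lb, Hsp90b1, Pdia6 and Krtcap2, which are counted again in the lists by function below. Each of those was lower in KO in RPF, and the 3 with an unadjusted p under 0.05 in RPF (Dnajc3, Ero1lb and Hsp90b1) were among them. The counts by element and by list are thus not separate observations. A match to these letters is a description and not a measured site.

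Other genes of the same route were taken from lists by function. Of the ERAD genes outside the group, 46 were tested in RPF, and 33 were lower in KO (71.7%, against 54.0% of all genes). The median was −0.072 in log2, beside −0.033 over all genes and −0.064 over the 5038 genes with a mean of at least 50. None passed with limma, 4 having an unadjusted p under 0.05 against 13.4% of all genes. Of those 4, Rnf5 and Vcp were higher in KO, and Ufl1 and Rnf139 were lower. Rnf5 had 0.88 in log2 (SE 0.32, limma adjusted p 0.234). With the replicate block 1 gene of the list passed, Vcp, the ATPase that extracts ERAD substrates from the membrane. Its RPF was higher in KO in 3 of 3 litters, 608 ± 114 against 412 ± 136 normalized reads (SD, n = 3). That is 0.61 in log2, with a limma adjusted p of 0.292, and of 0.0285 with the replicate block. Left out in turn, the 6 mice gave 0.29 (without WT mouse 1) to 0.78 (without WT mouse 3), passing in 0 of 6 cases without the litter term. Among the genes of this list with the most normalized input reads, not divided by length, were the ligase March6 and the lectin Os9. They had RPF log2 fold changes of −0.011 and −0.20 (limma adjusted p 0.977 and 0.584).

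Of the ER chaperones and folding enzymes, 30 of 34 were lower in KO in input and 27 of 34 in RPF, with medians of −0.12 and −0.18. Of all genes, 50.0% and 54.0% were lower. None passed in either assay (edgeR and limma), 3 in input and 9 in RPF having an unadjusted p under 0.05, against 3.46% and 13.4% of all genes. These went both ways. Tmx1, which had the lowest unadjusted p of the list in RPF, was higher in KO, at 0.68 in log2 (SE 0.20, limma adjusted p 0.123). In input Dnajc1 was higher, at 0.61 (SE 0.22, edgeR adjusted p 0.999). With the replicate block 1 passed in RPF, Ero1lb, an oxidase that drives disulfide formation. Its RPF was 288.4, 193.7 and 196.5 normalized reads in WT and 138.3, 132.2 and 136.7 in KO, or −0.71 in log2 (SE 0.21), with a limma adjusted p of 0.140, and of 0.0209 with the replicate block. Its input changed by as much, −0.70 (SE 0.23, edgeR adjusted p 0.999). The genes of the list with the most input reads, not divided by length, were Hsp90b1, P4hb and Calr. Hsp90b1, the ER member of the HSP90 family, had 9082, 8474 and 8445 normalized RPF reads in WT and 6743, 6568 and 6995 in KO, which did not overlap, and its log2 fold change of −0.36 (SE 0.13) did not pass (limma adjusted p 0.217). Its CDS had 43.2% GC, and with the GC trend removed it had −0.13 (limma adjusted p 0.835). P4hb and Calr had −0.11 and −0.09.

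Of the sensors and transcription factors of the UPR, 18 were tested in RPF, 9 were lower, against 54.0% of all genes, and the median was −0.05. None passed, with or without the replicate block, and 0 had an unadjusted p under 0.05 with limma. Ern1, Eif2ak3 and Atf6, the sensors themselves, and Atf4, the factor translated more when PERK is active, are given for their role and lie outside the rule for naming genes. Their RPF log2 fold changes were −0.12 (SE 0.15), 0.25 (SE 0.27), −0.21 (SE 0.14) and 0.29 (SE 0.18), with limma adjusted p of 0.786, 0.736, 0.540 and 0.495. The genes of the list with the most input reads were Tmbim6, Creb3l3 and Ppp1r15b, with RPF log2 fold changes of 0.13, −0.20 and 0.11.

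Genes of the ER translocon, its receptor and signal peptidase, which bring proteins into the ER, were lower in RPF in 13 of 16 cases with a median of −0.37, and in input in 14 of 17 with a median of −0.13. Of all genes, 54.0% were lower in RPF and 50.0% in input. None passed at the filter used (a mean of at least 10) with all 6 mice and no litter term, and 9 of 16 had an unadjusted p under 0.05 in RPF, against 13.4% of all genes. With a mean of at least 50 Srpr, Sec11a and Ssr3 passed, and Srpr and Ssr3 also did without KO mouse 1. Of all genes, 63 of 5038 and 226 of 8982 were called in those settings. With the replicate block 3 passed, all lower in KO, namely Srpr (the receptor of the signal recognition particle), Sec11a (a catalytic subunit of signal peptidase) and Ssr3 (a translocon-associated protein). Srpr had 732, 753 and 734 normalized RPF reads in WT and 523, 511 and 433 in KO, a log2 fold change of −0.60 (limma adjusted p 0.0626, and 0.0156 with the replicate block). Sec11a had −0.58 (limma adjusted p 0.0709, and 0.0208) and Ssr3 −0.53 (0.0691, and 0.0156). With the GC trend removed the list had 6 of 16 at an unadjusted p under 0.05, against 9.40% of all genes, and a median of −0.26. Of the 3 genes, Srpr passed with the GC trend removed and the replicate block, and Sec11a and Ssr3 did not. Tram1 and Sec61a1, with Ssr3 the 3 genes of the list with the most input reads, had −0.39 and −0.19.

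The oligosaccharyltransferase adds N-glycans to proteins entering the ER, and 10 of its 12 subunits were lower in RPF, with a median of −0.24, beside −0.05 in input. Of all genes, 54.0% were lower in RPF. With Derl2 left aside, Magt1 was the only listed gene that passed in limma without litter in the fit, at a mean of at least 10 and with all 6 mice. Its RPF was 410.4, 365 and 367 normalized reads in WT and 242.6, 227.4 and 234.1 in KO, with no overlap, a log2 fold change of −0.69 and an SE of 0.13 (limma adjusted p 0.0120). Its input log2 fold change was −0.03 (SE 0.13) and its TE log2 fold change −0.63 (SE 0.18), which did not pass (limma adjusted p 0.998). Left out in turn, the 6 mice gave −0.72 to −0.64 for Magt1 in RPF. Magt1 passed in 1 of 6 cases, without KO mouse 1, where 226 of 8982 genes were called. Its CDS had 46.5% GC, and with the GC trend removed it had −0.54 (limma adjusted p 0.0827). Rpn1 and Rpn2, the subunits with the most input reads, had −0.20 and −0.12.

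**Figure D4:**
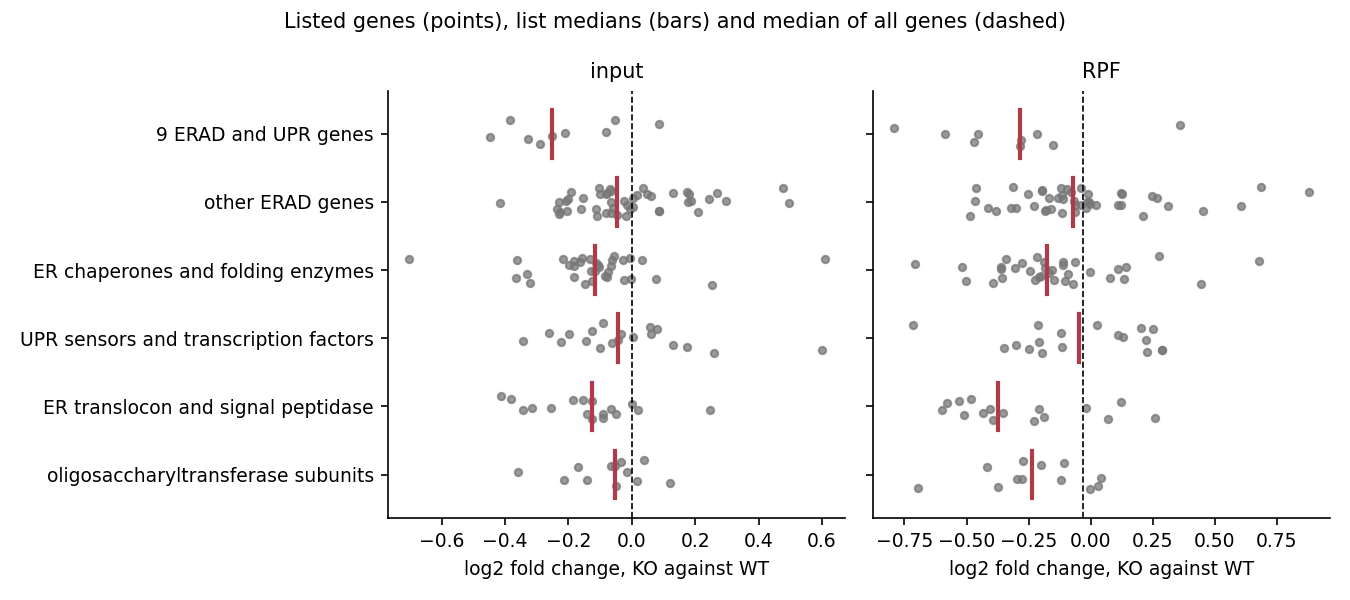
Log2 fold change of KO against WT (horizontal axis) of each listed gene in input (left) and RPF (right), with a red bar for the median of each list and a dashed line for the median of all genes tested. The lists' RPF medians ran from −0.37 for the translocon and signal peptidase to −0.05 for the UPR sensors and transcription factors, with −0.29 for the 9 ERAD and UPR genes of the group.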

How the data were processed

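Livers of 3 WT and 3 KO mice gave 12 libraries. For input, the authors aligned reads to mm10 with STAR 2.7.3a and deposited whole-number counts per gene, made by featureCounts (2.0.3 in the file header, 1.6.0 in the submitters' processing notes and the methods). For RPF and TE, the authors' deposited table holds a signal per library that is reads divided by a single factor for each library, without gene length. Footprints had been mapped by RiboToolkit at unique locations after rRNA reads were removed, and the use of strand for them is not given in the sources used here. In 100% of its values whole reads were recovered, and recovered input reads equalled the counts in 100% of genes. Its columns of the authors' fold change, p-value and adjusted p-value were not used. No column was left without a sample (0), and exon lengths are those deposited beside the counts.

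Input was tested with edgeR 4.0.16 (TMM, filterByExpr, robust quasi-likelihood) on 10057 genes. For RPF and TE, limma 3.58.1 (eBayes with trend, robust) was run on log2(value + 1), a scale that understates changes of low genes. It took the 8994 genes whose mean reached 10 in input and also in RPF. The fit had 4 group means and TE as the interaction. It treats input and RPF of the same liver as independent, so its SE of TE is not the spread of TE between mice. Input and RPF libraries share an estimate of the spread for each gene, so the SE of RPF draws on input too. The replicate block in limma is a litter term shared by both assays. A fit with a term for each mouse was run as an alternative for TE. R was 4.3.3. P-values are two-sided and Benjamini-Hochberg adjusted over all genes tested, and passing means an adjusted p under 0.05. The fits were run on simulated data with independent libraries, no litter effect and no GC trend, which do not bear on those settings.

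Labels give littermates the same number, so mice are paired by litter. The correlation of littermates' deviations from their group means was 0.082, 0.127 and 0.100 (input) and 0.242, 0.144 and 0.195 (RPF). The study's methods name no litter term, so the fit without it comes first. CDS length and GC content are those of each gene's longest CDS in GENCODE M21 (GRCm38).

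The members, the lists and the tests were chosen with earlier results of these data known. A further gene that the rule for names would include is not reported here. Named were the 10 members, Mettl5, and the 6 genes most like Hspa5 in input and Derl2 in RPF. Of each list, the genes that passed in input or RPF in either fit were named. The 3 of each list with the highest mean of normalized input reads, not divided by gene length, were named too. The alternatives comprised DESeq2 1.42.0, RLE size factors, pseudocounts of 5 and 0.1, other filters, the replicate block, edgeR on whole reads, removal of a GC trend and leaving out each mouse.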

Additional observations from a re-analysis of the deposited data

How the results depend on the processing

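Among members and listed genes, Derl2 left aside in RPF and TE, the count that passed was 0 in input, 1 in RPF (Magt1) and 0 in TE. The counts in input and TE were 0 under every alternative run. In RPF the count was 8 with the replicate block of litter (Xbp1, Hspa5, Magt1, Srpr, Sec11a, Ssr3, Ero1lb and Vcp), 4 with a mean of at least 50 (Magt1, Srpr, Sec11a and Ssr3), 4 with the GC trend removed and the replicate block (Magt1, Srpr, Vcp and Xbp1), 0 with the GC trend removed and 0 with edgeR on whole reads. It was 9 with edgeR on whole RPF reads and the replicate block (Xbp1, Magt1, Srpr, Sec11a, Ssr3, Ero1lb, Vcp, Rnf5 and Tmx1), a setting chosen after the data were seen, as was edgeR on whole reads of the 12 libraries (1, Magt1). Leaving out 1 mouse gave 0 to 7 in RPF, the 7 without KO mouse 1 (Edem1, Xbp1, Magt1, Srpr, Ssr3, Erp44 and Tmx1) and 0 without any of the other 5, and the cause was not tested. These counts pool both directions. In the main fit Vcp, Rnf5, Tmx1 and Edem1 were higher in KO in RPF (0.61, 0.88, 0.68 and 0.36 in log2), and the other genes named for these counts were lower. The replicate block changed no other call of a member. Over all genes, 44 of 8994 were called in RPF in the main fit, 293 with the replicate block and 63 of 5038 with a mean of at least 50. With the GC trend removed it was 15 of 8986, and 93 with the replicate block added. With edgeR on whole RPF reads it was 20 of 8994, and 330 with the replicate block. It was 226 of 8982 without KO mouse 1, 28, 9 and 16 without WT mice 1, 2 and 3, and 0 and 11 without KO mice 2 and 3.

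Leaving out a mouse turned Syvn1 in input (−0.26 to 0.086) and TE (−0.14 to 0.041), Sel1l in TE (−0.076 to 0.035), Herpud1 in input (−0.67 to 0.023) and RPF (−0.63 to 0.16) and Creld2 in TE (−0.034 to 0.12). With the GC trend removed, TE of Sel1l was 0.042 and of Creld2 −0.062. Derl2 in RPF stayed between −0.92 and −0.69 when a mouse was left out. All 9 members had RPF per kilobase above the median gene, also per kilobase of exon. Creld2 and Derl2 rest on as few as 84 and 110 input counts, and the depth of Derl3 allows no comparison.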

Other observations

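Herpud1 was the member with the widest spread between litters, and the genes most like it were listed after its values were seen. The 6 nearest in input, among 6099 genes compared, were Tradd (r 0.986), Ercc6l2, Saa4, Smyd2, Pde4dip and Ctse. The coefficients are over 6 libraries of mice that share litters and are a description.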
